A study of Homo sapiens with 12 samples.

Results

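The genes described here make up the machinery that licenses replication origins, unwinds DNA and copies it at the fork. They were taken by name, as 49 genes of 59424 in the deposited tables, and fall into 11 groups by role, from the origin recognition complex to the chromatin assembly factor. RNA was sequenced from stable lines of 2 prostate cancer cell lines made by lentiviral transduction, in 4 groups of 3 biological replicates and 12 libraries in all. CWR22Rv1, a prostate carcinoma line, carried either a lentiviral control shRNA (shControl) or a knockdown of GALNT7 (GALNT7 KD). DU145, another prostate carcinoma line, carried either a lentiviral control open reading frame (OEControl) or an overexpressed GALNT7 (GALNT7 OE). GALNT7 is an enzyme that adds GalNAc sugars to serine and threonine residues of glycoproteins. All 4 groups were thus transduced cells; no untransduced cells were analysed here. Whether each line was a pool or a clone, and which promoter drove the transgene, are not given in the sources used here. The comparisons ask which genes respond when GALNT7 is lowered in one cell line or raised in the other.

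Replication is prepared in the G1 phase of the cell cycle. The origin recognition complex (ORC) marks origins, and with CDC6 and CDT1 it loads the ring-shaped MCM2-7 complex around DNA, a step that geminin (GMNN) and the ubiquitin ligase adaptor DTL keep from being repeated in S phase. CDC45 and the GINS complex then join the ring to form the CMG helicase, DNA polymerase alpha-primase lays primers, polymerases epsilon and delta copy the leading and lagging strands on the PCNA clamp, and FEN1 and LIG1 join the Okazaki fragments. Many of these genes are transcribed at the G1/S boundary under E2F factors, so their RNA is known to be higher in dividing cells.

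The targeted gene checks the labels. GALNT7 had normalised counts of 862, 1042 and 1093 in shControl and 481, 501 and 399.7 in GALNT7 KD cells (log2 fold change -1.11, SE 0.129, adjusted p=0.0051). In DU145 cells they were 1051, 928 and 913 in OEControl and 1988, 2221 and 2334 in GALNT7 OE (log2 fold change 1.18, SE 0.0863, adjusted p=8.0e-05). GALNT7 was lower in every KD library and higher in every OE library than in all of their controls. A normalised count is the number of reads on a gene divided by a size factor for the library, and reads recovered from these values came to between 18364512 and 24356910 per library. The luminal prostate markers KLK2, KLK3 and TMPRSS2 were present in CWR22Rv1 cells, whereas all of these averaged under 5 in DU145 cells. The summed normalised count of 5 genes of leukocytes, endothelium and fibroblasts was 45.9 to 87.5 in CWR22Rv1 libraries. In DU145 it was 295 to 423 in OEControl and 66.5 to 158 in GALNT7 OE, mainly COL1A1, with PTPRC and CD3E near or at 0. In GALNT7 OE replicate 3, however, PECAM1 was at 49.3 beside COL1A1 at 64.0. The part of these 5 genes in the results below was not tested.

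The region around the start site of these genes often holds an E2F motif. Such stretches are shown first because the OE results below concern genes that E2F factors are known to drive. RefSeq promoter windows (GRCh38.p14, 250 bases before to 50 after each start) were matched for 42 of the 49 genes, with 52 windows, and the windows were searched on both strands for TTTCCCGC, TTTCGCGC, TTTGCCGC and TTTGGCGC, which can overlap each other. POLD3, MCM5, RPA3, MCM4, GINS4, RPA2 and DSCC1 had no entry. At least 1 of these motifs was present in 21 of 52 windows (40.4%) and in 21 of 42 genes (50%), against 1164 of 35116 windows (3.31%) over all genes. In some of the genes, among them CDC6, GINS1 and MCM2, the only matches lay at or after the start. The stretches below read 5′ to 3′ on the strand of the gene, with each match in capitals. The first 7 come from genes with a match, and CDC45 and POLD1 from genes without one in any of their windows. MCM6 was chosen for its pair of matched places, PCNA, CDT1, RFC3, LIG1, POLA2 and POLE as members of several roles, and CDC45 and POLD1 as the highest and lowest log2 fold change in OE.
MCM6 (chr2:135876514-135876608, minus strand, 165 to 71 bases before the start): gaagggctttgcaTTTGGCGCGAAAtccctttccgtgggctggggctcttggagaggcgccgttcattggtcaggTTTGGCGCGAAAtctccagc
PCNA (chr20:5126653-5126712, minus strand, 90 to 31 bases before the start): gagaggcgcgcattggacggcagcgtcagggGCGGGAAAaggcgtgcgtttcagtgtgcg
CDT1 (chr16:88803724-88803783, plus strand, 65 to 6 bases before the start): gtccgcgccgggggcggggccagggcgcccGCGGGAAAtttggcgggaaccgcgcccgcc
RFC3 (chr13:33818064-33818123, plus strand, 85 to 26 bases before the start): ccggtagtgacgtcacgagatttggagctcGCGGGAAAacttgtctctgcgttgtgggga
LIG1 (chr19:48170430-48170489, minus strand, 145 to 86 bases before the start): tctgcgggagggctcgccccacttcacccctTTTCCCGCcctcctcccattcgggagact
POLA2 (chr11:65261877-65261936, plus strand, 85 to 26 bases before the start): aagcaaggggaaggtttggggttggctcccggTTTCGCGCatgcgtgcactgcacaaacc
POLE (chr12:132687348-132687407, minus strand, 65 to 6 bases before the start): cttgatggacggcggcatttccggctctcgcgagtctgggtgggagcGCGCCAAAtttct
CDC45 (chr22:19479401-19479460, plus strand, 65 to 6 bases before the start): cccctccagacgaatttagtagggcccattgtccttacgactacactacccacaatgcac
POLD1 (chr19:50384258-50384317, plus strand, 65 to 6 bases before the start): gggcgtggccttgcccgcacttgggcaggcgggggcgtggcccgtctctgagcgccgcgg

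Each capital run in MCM6 holds TTTGGCGC and, overlapping it on the opposite strand, TTTCGCGC, whereas the capitals in PCNA, CDT1 and RFC3 read as TTTCCCGC on the opposite strand, and those in POLE as TTTGGCGC. The CCAAT box, bound by NF-Y, was found in 30 of 52 windows (57.7%) of 26 genes, against 34.6% of all windows. The CHR element TTTGAA, which marks genes of the later cell cycle, was found in none of the 52 windows, against 15.2% of all windows. A match describes the letters in the window and was not tied to binding, and no match says only that these letters are not in it. The median log2 fold change in OE was 1.02 for the 21 genes with an E2F match and 0.88 for the 21 without, and in KD it was -0.03 and 0.02.

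In DU145 cells that overexpressed GALNT7, nearly the whole replication machinery was more abundant. Of the 49 genes, 46 rose, none fell, and ORC4, POLD1 and POLE did not pass the threshold (limma, adjusted p of at most 0.05). The number of members lower was also 0 at an unadjusted p under 0.05 and 0 with edgeR and with DESeq2 on recovered reads. Among all 18705 genes tested in this comparison 43.5% passed the threshold, 22.9% higher and 20.5% lower. The median log2 fold change of the 49 genes was 0.95 (range -0.03 to 2.10), against -0.01 over all genes tested. Of the members, 22 had a log2 fold change of at least 1, and 39 lay above 0.73, the 90th percentile of all genes tested. In 46 of 49 genes every GALNT7 OE library lay above every OEControl library, which was the case for 28.2% of all genes, with another 27.1% fully lower. For each of those 46 genes the two-sided exact permutation test of the difference of group means gave p=0.1, the smallest that 3 libraries against 3 can give. The replicates lay close together: the coefficient of variation had a median over the 49 genes of 6.17% in OEControl and 7.07% in GALNT7 OE. Rescaling the libraries to their 75th percentile lowered the log2 fold changes of this comparison by 0.10 and the share of higher genes among all calls from 52.8% to 41.6%. The same 46 members still passed, and the median of the 49 stayed 0.96 above that of all genes.

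**Figure D1:**
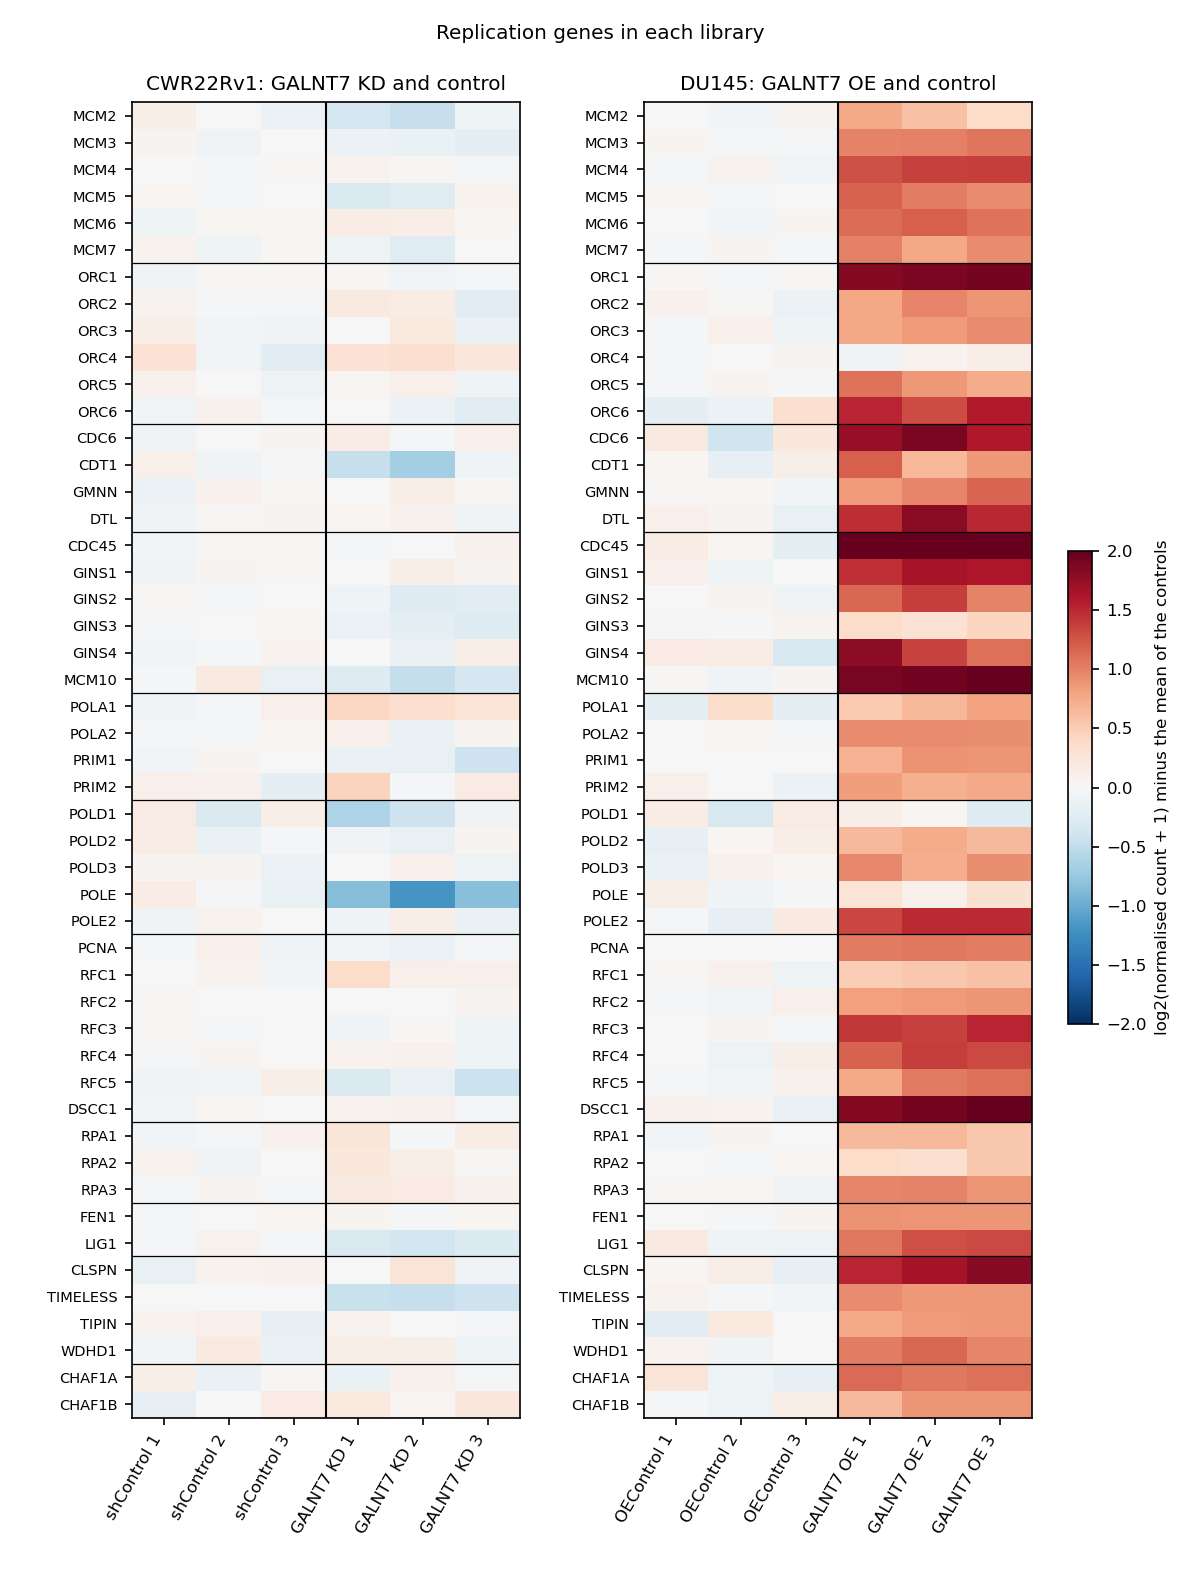
Heatmap of the 49 replication genes (rows, grouped by role with lines between the groups) in the 6 libraries of each cell line (columns). Colour is log2(normalised count + 1) minus the mean of the 3 control libraries of that line, from -2 (blue) to 2 (red), with values beyond drawn at the limit. The 3 GALNT7 OE columns are red in most rows, near white in ORC4 and POLD1 and pale in POLE, GINS3 and RPA2, whereas the GALNT7 KD columns are mostly near white, with POLE the bluest row.

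The 6 subunits of the MCM2-7 ring, the core of the replicative helicase, all rose in OE, with log2 fold changes from 0.57 for MCM2 to 1.35 for MCM4 and a median of 1.04. MCM4 had normalised counts of 3278, 3498 and 3189 in OEControl and 8043, 8587 and 8688 in GALNT7 OE (log2 fold change 1.35, SE 0.0524, adjusted p=6.7e-06). For MCM2 they were 2279, 2189.5 and 2378 against 3839.6, 3416 and 2936 (log2 fold change 0.57, SE 0.0980, adjusted p=0.0035). Both genes were higher in every OE library, and MCM2 was the more variable of the pair. MCM3 (1.02), MCM5 (1.05), MCM6 (1.13) and MCM7 (0.91) had log2 fold changes between those of MCM2 and MCM4. The log2 ratio of MCM4 to MCM2 within a library was 0.42 to 0.68 in OEControl and 1.07 to 1.56 in GALNT7 OE. The ring subunits are loaded in equal numbers, and the ratio here is one of RNA. This ratio and those below pair genes picked after their values were seen, and none was tested. Where a pair joins the largest and smallest change of a role, a difference in the ratio follows from that choice.

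Within the origin recognition complex, 5 of 6 subunits rose and ORC4 did not pass the threshold. ORC1, the subunit whose protein is known to rise and fall with the cell cycle, had the largest change. It was measured at 172, 165 and 172 in OEControl and 608, 626 and 644 in GALNT7 OE (log2 fold change 1.88, SE 0.0807, adjusted p=8.7e-06). ORC6, the smallest subunit, was next with a log2 fold change of 1.47 (adjusted p=3.9e-04). ORC2 (0.88), ORC3 (0.86) and ORC5 (0.90), which belong to the stable core, lay close to each other. ORC4, a core subunit with an AAA+ fold like that of ORC1, was the exception at 698, 714 and 749.6 against 688, 757 and 791 (log2 fold change 0.05, SE 0.0783, adjusted p=0.66, 95% interval -0.14 to 0.23). Its OE libraries overlapped those of the control. The log2 ratio of ORC1 to ORC4 went from -2.11 to -2.02 in OEControl libraries to -0.30 to -0.18 in GALNT7 OE libraries, a difference of 1.83.

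The helicase loaders and the factors that restrain them all rose, 4 of 4, with a median of 1.30. CDC6, the ATPase that joins ORC to load the helicase, had normalised counts of 575, 384 and 588 in OEControl and 1696, 1877 and 1541 in GALNT7 OE (log2 fold change 1.74, SE 0.174, adjusted p=2.9e-04). OEControl replicate 2 was the lowest of the controls, yet every OE library exceeded every control library by a wide margin. CDT1, which brings MCM2-7 to the origin, was at 426, 369 and 450.4 against 946, 654 and 755 (log2 fold change 0.91, SE 0.149, adjusted p=0.0028). Its inhibitor GMNN (1.00) and DTL (1.59), which directs CDT1 to degradation in S phase, were also higher. The log2 ratio of CDT1 to GMNN overlapped between the groups (difference -0.09), whereas that of CDC6 to CDT1 was higher in OE by 0.84 without overlap.

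Genes for helicase activation had the largest median of all roles, 1.5, and 6 of 6 rose. CDC45, the partner that the ring recruits together with GINS, had the highest log2 fold change among the 49 genes. Its values were 361, 334 and 285 in OEControl and 1377, 1448 and 1366 in GALNT7 OE (log2 fold change 2.10, SE 0.0995, adjusted p=1.3e-05, 4.28-fold), and 0.791% of all genes tested had a larger log2 fold change. CDC45 lies on the plus strand of chromosome 22 (GRCh38, 19479459 to 19520612). MCM10, which helps the assembled helicase to start, came close behind at 298, 279 and 305 against 1093, 1118 and 1288 (log2 fold change 1.98, SE 0.0899, adjusted p=1.0e-05). The 4 GINS subunits form 1 tetramer, and their log2 fold changes went from GINS3 (0.37) over GINS2 (1.17) and GINS4 (1.41) to GINS1 (1.58). GINS3 was at 356, 361 and 385 against 474, 450.0 and 497 (log2 fold change 0.37, SE 0.0820, adjusted p=0.011), a small rise with no overlap. The 11 genes of the CMG helicase (CDC45, MCM2 to MCM7 and GINS1 to GINS4) all rose, with a median of 1.13. CDC45 to GINS3 had a log2 ratio of -0.43 to 0.02 in OEControl and 1.46 to 1.68 in GALNT7 OE.

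Polymerase alpha-primase, which starts every new strand, rose in 4 of 4 subunits, with log2 fold changes of 0.66 to 0.94. POLA2, the accessory subunit, was at 699.6, 716 and 681 in OEControl and 1343, 1345 and 1339 in GALNT7 OE (log2 fold change 0.94, SE 0.0567, adjusted p=3.5e-05), with very little spread. POLA1, the catalytic subunit, was at 364, 531 and 367 against 595, 658 and 721 (log2 fold change 0.66, SE 0.164, adjusted p=0.016). OEControl replicate 2 was high for POLA1, and its call was lost without OEControl replicate 1 (adjusted p=0.053), without OEControl replicate 3 (0.053) or without GALNT7 OE replicate 3 (0.056). The primase subunits PRIM1 (0.83) and PRIM2 (0.77) lay between both. PRIM1 overlaps NACA on the same strand, whose log2 fold change was 0.33 in OE and -0.46 in KD.

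Of the replicative polymerases delta and epsilon, the accessory subunits POLE2, POLD2 and POLD3 rose in OE and the catalytic subunits POLE and POLD1 did not pass the threshold. POLE2, the second subunit of polymerase epsilon, had normalised counts of 537, 487 and 617 in OEControl and 1377, 1529 and 1535 in GALNT7 OE (log2 fold change 1.44, SE 0.101, adjusted p=6.8e-05). For POLE, which carries the polymerase and proofreading activities, the values were 1773, 1545 and 1584 against 1978, 1756 and 2024 (log2 fold change 0.23, SE 0.0813, adjusted p=0.056, 95% interval 0.04 to 0.42). The lowest POLE value in OE, in replicate 2, lay just under the highest control value. POLE was past the threshold without OEControl replicate 1 (log2 fold change 0.29, adjusted p=0.038) or GALNT7 OE replicate 2 (0.29, 0.032), so that its side of the threshold rests on single libraries. POLD1, the catalytic subunit of polymerase delta, was at 1348, 981 and 1370.3 against 1324, 1259 and 1022 (log2 fold change -0.03, SE 0.157, adjusted p=0.9, 95% interval -0.40 to 0.34) and overlapped fully. Its partners POLD2 (0.68) and POLD3 (0.87) rose. The log2 ratio of POLD3 to POLD1 was -0.92 to -0.24 in OEControl and 0.03 to 0.53 in GALNT7 OE, and that of POLE2 to POLE was -1.72 to -1.36 and -0.52 to -0.20.

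PCNA, the sliding clamp that tethers polymerases to DNA, and the loader subunits among the members rose, 7 of 7 with a median of 1.04. PCNA itself was at 1466, 1471 and 1452 in OEControl and 3018, 3042 and 2965 in GALNT7 OE (log2 fold change 1.04, SE 0.0445, adjusted p=8.6e-06), among the tightest values of the set. DSCC1, part of the alternative clamp loader that also serves sister chromatid cohesion, had the largest change of this group. It was counted at 102, 101 and 86.6 against 346, 366 and 425 (log2 fold change 1.96, SE 0.128, adjusted p=5.0e-05). RFC1, the large subunit of the main clamp loader, had the smallest at 2195, 2289.8 and 2008 against 3047, 3136 and 3255 (log2 fold change 0.54, SE 0.0627, adjusted p=5.8e-04). The small subunits RFC2 (0.85), RFC3 (1.44), RFC4 (1.29) and RFC5 (0.97), which both loaders share, lay between RFC1 and DSCC1.

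RPA, the complex that coats single-stranded DNA, rose in 3 of 3 subunits and had the smallest median of the 11 roles, 0.62. RPA3 was at 462, 469 and 435 in OEControl and 897, 909 and 841 in GALNT7 OE (log2 fold change 0.95, SE 0.0720, adjusted p=9.0e-05), RPA1 had a log2 fold change of 0.62, and RPA2 was at 1009.8, 997 and 1052 against 1309.9, 1277 and 1478 (log2 fold change 0.41, SE 0.0736, adjusted p=0.0042). All 3 were higher in every OE library. Of the enzymes that finish Okazaki fragments, LIG1, the ligase, had 483, 399 and 397 against 885, 1044 and 1067 (log2 fold change 1.23, SE 0.114, adjusted p=2.2e-04). FEN1, the flap nuclease, had 1307, 1276 and 1360.2 against 2442, 2414 and 2419 (log2 fold change 0.88, SE 0.0501, adjusted p=2.7e-05). Neither overlapped between the groups. FEN1 shares its strand and part of its locus with FADS2, which had a log2 fold change of 0.78 (adjusted p=2.5e-05), so reads near the overlap could belong to either gene.

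The factors that keep the fork stable rose as well, 4 of 4 with a median of 0.97. CLSPN (claspin), the adaptor between the fork and the checkpoint kinase CHEK1, was at 248, 263 and 214 in OEControl and 697, 766 and 856 in GALNT7 OE (log2 fold change 1.67, SE 0.117, adjusted p=6.7e-05). TIMELESS and TIPIN form a heterodimer that travels with the helicase. TIMELESS was at 1628, 1525 and 1479 against 2958, 2808 and 2822 (log2 fold change 0.89, SE 0.0565, adjusted p=4.3e-05). TIPIN was at 285, 375 and 331 against 556, 594 and 600.0 (log2 fold change 0.83, SE 0.114, adjusted p=0.0013). The pair thus changed by nearly the same amount, and the log2 ratio of TIMELESS to TIPIN overlapped (difference 0.07). WDHD1, which links polymerase alpha to the helicase, had a log2 fold change of 1.05 (adjusted p=4.2e-05). The subunits of chromatin assembly factor 1, which places histones on new DNA, both rose. CHAF1A was at 894, 696 and 669 against 1645, 1546 and 1599 (log2 fold change 1.09, SE 0.114, adjusted p=3.7e-04), and CHAF1B at 627, 594 and 696 against 997, 1173 and 1179 (log2 fold change 0.80, SE 0.0974, adjusted p=7.2e-04).

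**Figure D2:**
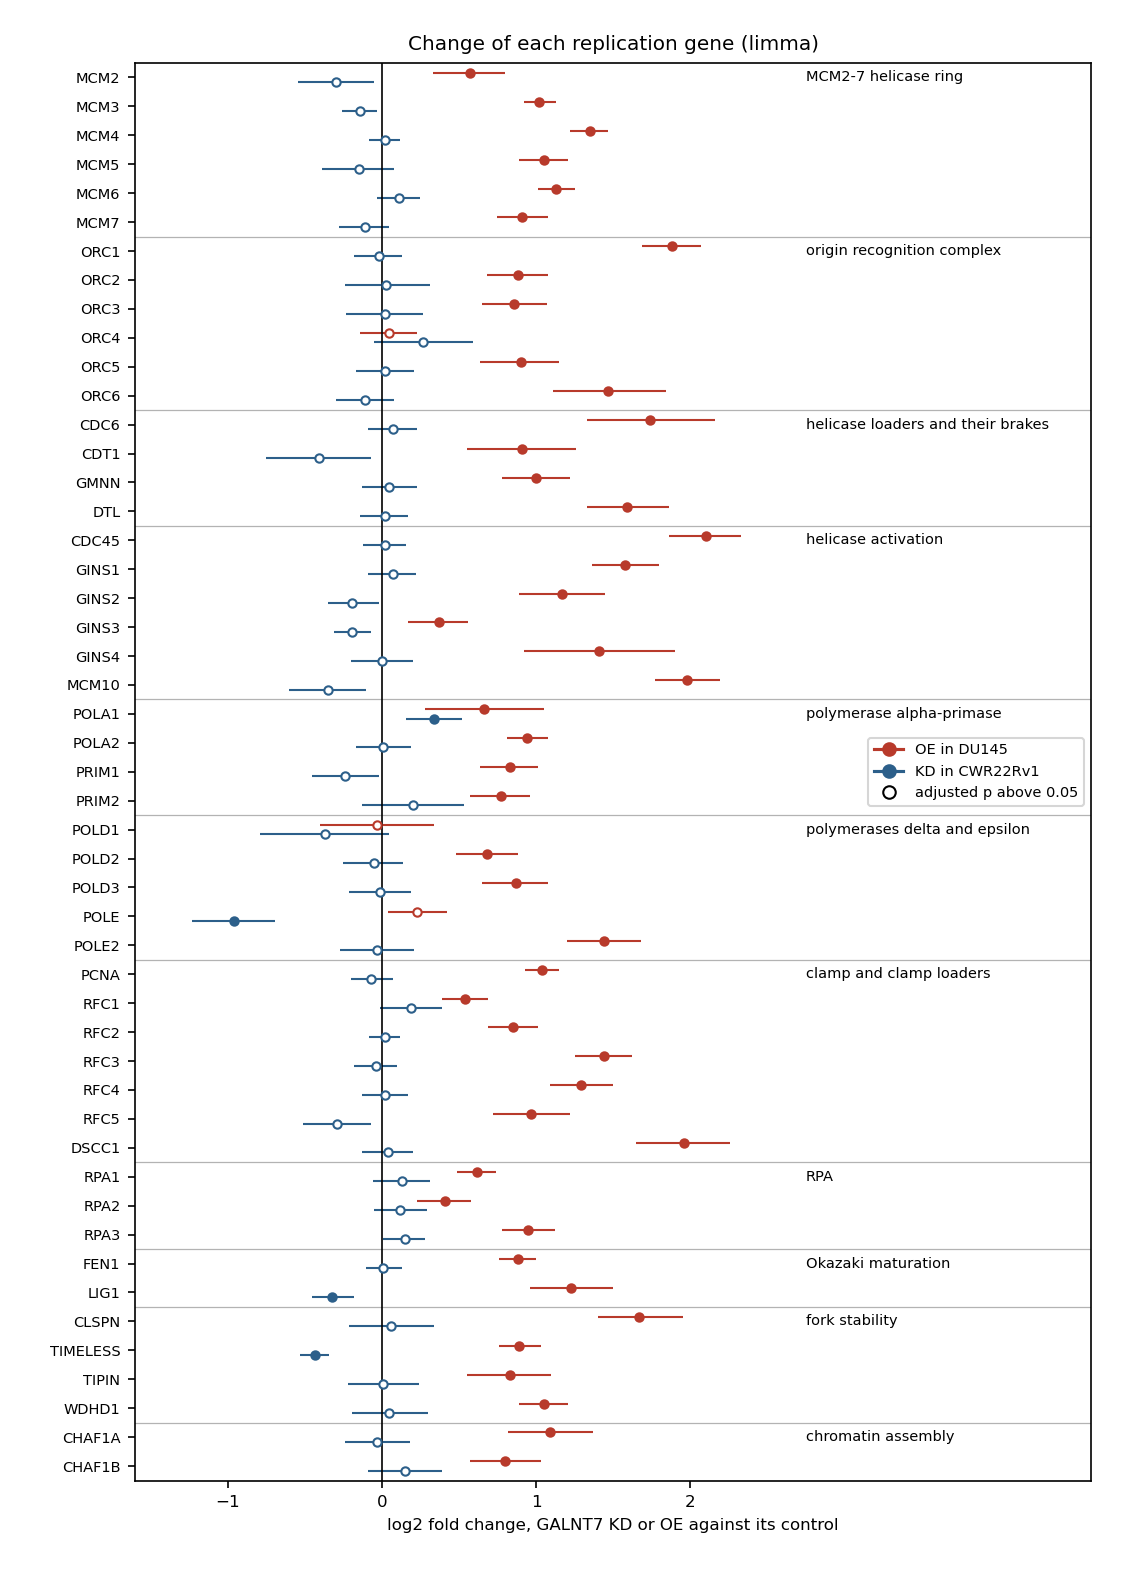
Log2 fold change (x axis) of each of the 49 genes (y axis, grouped by role) in OE (red) and in KD (blue), with 95% intervals from limma. Filled points passed an adjusted p of 0.05 and open points did not. In OE 46 points are filled, from 0.37 for GINS3 to 2.10 for CDC45, and in KD 4 are filled, POLE, TIMELESS and LIG1 below 0 and POLA1 above.

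General markers of proliferation moved with these genes in OE. All 8 of MKI67, TOP2A, CCNA2, CCNB1, CDK1, BIRC5, AURKA and PLK1 rose, by 1.64 to 2.18 on the log2 scale, with a median of 2.01. The lowest of them, TOP2A, had a larger log2 fold change than 43 of the 49 replication genes. In bulk RNA, more cells in S phase and more RNA per cell cannot be told apart, for OE as for KD. In KD none of the 8 markers passed the threshold (limma, log2 fold change -0.25 to 0.05), 2 were lower at an unadjusted p under 0.05, edgeR called 0 and DESeq2 called 1.

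Knockdown of GALNT7 in CWR22Rv1 cells left most of the machinery near its control level. Of the 49 genes, POLE, TIMELESS and LIG1 fell, POLA1 rose, and 45 did not pass the threshold, that is 4 of 49 (8.16%) against 9.06% of all 17906 genes tested (5.28% higher, 3.79% lower). The share of members called in either direction was thus close to that of all genes. At an unadjusted p under 0.05, 11 members were lower and 2 higher, and 4 of the 11 lie on chromosome 12, described below. The share of all genes at that p was not computed. With DESeq2, 7 members were lower and 1 higher, against 1161 lower and 1481 higher over all genes. The median log2 fold change was 0.01 (range -0.96 to 0.34), against -0.01 over all genes. For 39 of the 49 genes the 95% interval lay within 0.5 of 0 on the log2 scale. The groups did not overlap in 10 genes that were lower (20.4%, against 15.6% of all genes) and in 3 that were higher (6.12%, against 16.9%).

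POLE had the largest change of the set in KD. It lies on the minus strand of chromosome 12 (GRCh38, 132623753 to 132687365). Its normalised counts were 4118, 3674 and 3404 in shControl and 2051, 1637 and 2090.2 in GALNT7 KD (log2 fold change -0.96, SE 0.115, adjusted p=0.006, 0.51 of the control level). Every KD library was far below every control, replicate 2 most of all. Leaving out any 1 replicate moved the log2 fold change no further than -1.02 to -0.85, with an adjusted p of at most 0.029. POLE2 did not move with it, at 439, 485 and 464 against 436, 505 and 422 (log2 fold change -0.03, SE 0.10, adjusted p=0.89, 95% interval -0.27 to 0.21). The log2 ratio of POLE2 to POLE was therefore higher in KD by 0.93, and it was higher in OE by 1.21 as well, without overlap in either comparison. These ratios were picked after the values were seen and were not tested.

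TIMELESS, on the minus strand of chromosome 12 (GRCh38, 56416373 to 56449403), was at 4966, 5003 and 4912 in shControl and 3662, 3612 and 3740.2 in GALNT7 KD (log2 fold change -0.43, SE 0.0401, adjusted p=0.0026). The spread within each group was small, and without any 1 replicate the log2 fold change was -0.45 to -0.42 with an adjusted p of at most 0.02. Its partner TIPIN was at 641, 649 and 540.2 against 639, 602 and 595 (log2 fold change 0.01, SE 0.0967, adjusted p=0.97) and overlapped. The log2 ratio of TIMELESS to TIPIN was lower in KD by 0.44 with no overlap.

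POLE, TIMELESS, PRIM1 and RFC5 are the 4 members on chromosome 12, and all 4 were lower in KD without overlap. That was the case for 15.6% of all genes tested, and the share among genes of chromosome 12 was not computed. PRIM1 was at 1569.9, 1690.5 and 1635 in shControl and 1480.2, 1469.9 and 1219 in GALNT7 KD (log2 fold change -0.24, adjusted p=0.16). RFC5 was at 1516, 1531 and 1721 against 1296, 1437 and 1180.0 (log2 fold change -0.29, adjusted p=0.11). The chromosome was lower as a whole: its 922 genes tested had a median log2 fold change of -0.28 in KD, 83.2% were below 0, and 21.9% were past the threshold and lower. PRIM1 and RFC5 lay at that median, 0.04 above and 0.01 below it. TIMELESS was 0.16 below it, with 29.9% of the genes of the chromosome lower still. POLE was 0.68 below it, with 7.27% of them lower. In OE the median of chromosome 12 was 0.07. The part of this shift of chromosome 12 in the results of the 4 genes was not tested. Among the 45 members on other chromosomes, POLA1 rose, LIG1 fell and 43 did not pass the threshold.

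LIG1, on the minus strand of chromosome 19 (GRCh38, 48115445 to 48170603), was at 2480.0, 2656 and 2496 in shControl and 2073, 1963 and 2093 in GALNT7 KD (log2 fold change -0.32, SE 0.0560, adjusted p=0.02). All KD libraries were below all controls. The call was lost in 5 of the 6 fits without 1 replicate, in all but the one without GALNT7 KD replicate 3, where the adjusted p was 0.035 (0.052 to 0.071 in the others). FEN1, which acts just before LIG1, was at 2858, 2947 and 3001 against 3034, 2857 and 3000.5 (log2 fold change 0.01, SE 0.0495, adjusted p=0.9). POLA1, on the plus strand of chromosome X (GRCh38, 24693919 to 24996986), was the one member higher in KD, at 1004, 1023 and 1125 against 1406, 1309.9 and 1269.5 (log2 fold change 0.34, SE 0.0751, adjusted p=0.04). Its call was lost without any 1 of the 6 libraries (adjusted p from 0.055 to 0.13), so it rests on all of them. The other subunits of polymerase alpha-primase did not pass the threshold, with log2 fold changes of 0.01 for POLA2, -0.24 for PRIM1 and 0.20 for PRIM2.

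**Figure D3:**
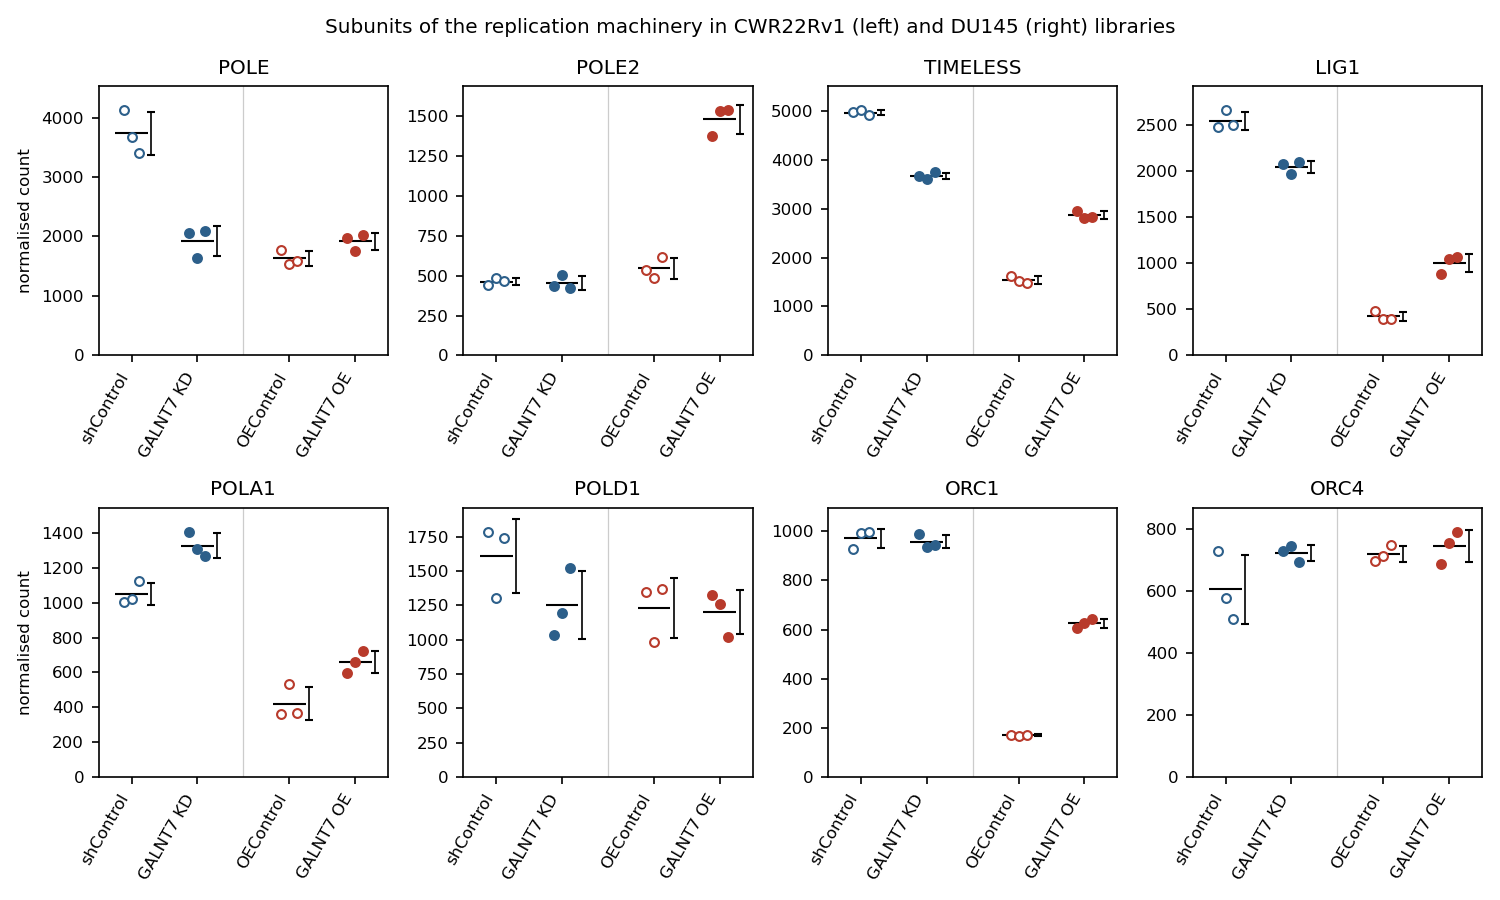
Normalised counts (y axis, from 0) of 8 genes in the 3 replicates of each group, CWR22Rv1 left (blue) and DU145 right (red), with open points for controls and filled points for KD or OE. Horizontal lines are means, and bars beside them are SDs. POLE, TIMELESS and LIG1 lie lower in KD, POLA1 lies higher in both, and POLD1 and ORC4 overlap between the groups in both lines. The lines were scaled separately, so levels can be read only within a line.

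Just outside the threshold in KD were GINS3 (log2 fold change -0.19, adjusted p=0.068) and MCM10 (-0.35, adjusted p=0.086), both lower without overlap. For 2 ring genes and the loader CDT1, picked after their values were seen, the KD replicates differed. MCM2 was at 10328, 9627 and 8819 in shControl and 7498, 6971 and 9010.0 in GALNT7 KD (log2 fold change -0.30, adjusted p=0.13). CDT1 was at 2038, 1805 and 1879 against 1384, 1193 and 1785 (-0.41, adjusted p=0.13). MCM5 was at 3942, 3728 and 3859 against 3142, 3235 and 4045 (-0.15, adjusted p=0.37). In all 3 genes, GALNT7 KD replicate 3 lay above the other KD replicates and near the controls. That library was also the highest KD library for MCM7, but the lowest for MCM3, MCM4 and MCM6. Without that library MCM2 (-0.40, adjusted p=0.04), CDT1 (-0.57, 0.03) and MCM5 (-0.27, 0.035) passed the threshold. No ORC subunit passed it with limma, edgeR or DESeq2 (0 of 6 also at an unadjusted p under 0.05), and ORC2, ORC3 and ORC5 had log2 fold changes of 0.02 to 0.03. ORC4 was at 729.9, 577 and 511 against 731, 746 and 694 (0.27, adjusted p=0.26), with shControl replicate 1 inside the KD range.

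Several genes with large changes in OE were near 0 in KD. Others were lower in KD without overlap: MCM10 and LIG1, given above, and GINS2 (log2 fold change -0.19, limma adjusted p=0.15). Of these, only LIG1 passed the threshold. CDC45 was at 1718, 1807 and 1804 in shControl and 1736, 1766 and 1889 in GALNT7 KD (log2 fold change 0.02, SE 0.0592, adjusted p=0.9, 95% interval -0.12 to 0.16). DSCC1 had a log2 fold change of 0.04 (95% interval -0.13 to 0.20), ORC1 of -0.02 (-0.18 to 0.13), CDC6 of 0.07 (-0.09 to 0.23), CLSPN of 0.06 (-0.21 to 0.34) and PCNA of -0.07 (-0.20 to 0.07). MCM4, the largest riser of the ring, had 0.02 (-0.08 to 0.12). RPA1, RPA2 and RPA3 lay at 0.13, 0.12 and 0.15, and CHAF1A and CHAF1B at -0.03 and 0.15, with no call. Set side by side, 43 of the 49 genes rose in OE and did not pass in KD, TIMELESS and LIG1 fell in KD and rose in OE, POLA1 rose in both, POLE fell in KD and did not pass in OE, and ORC4 and POLD1 passed in neither. The comparisons come from different cell lines with no shared libraries, and the difference between them was not tested.

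**Figure D4:**
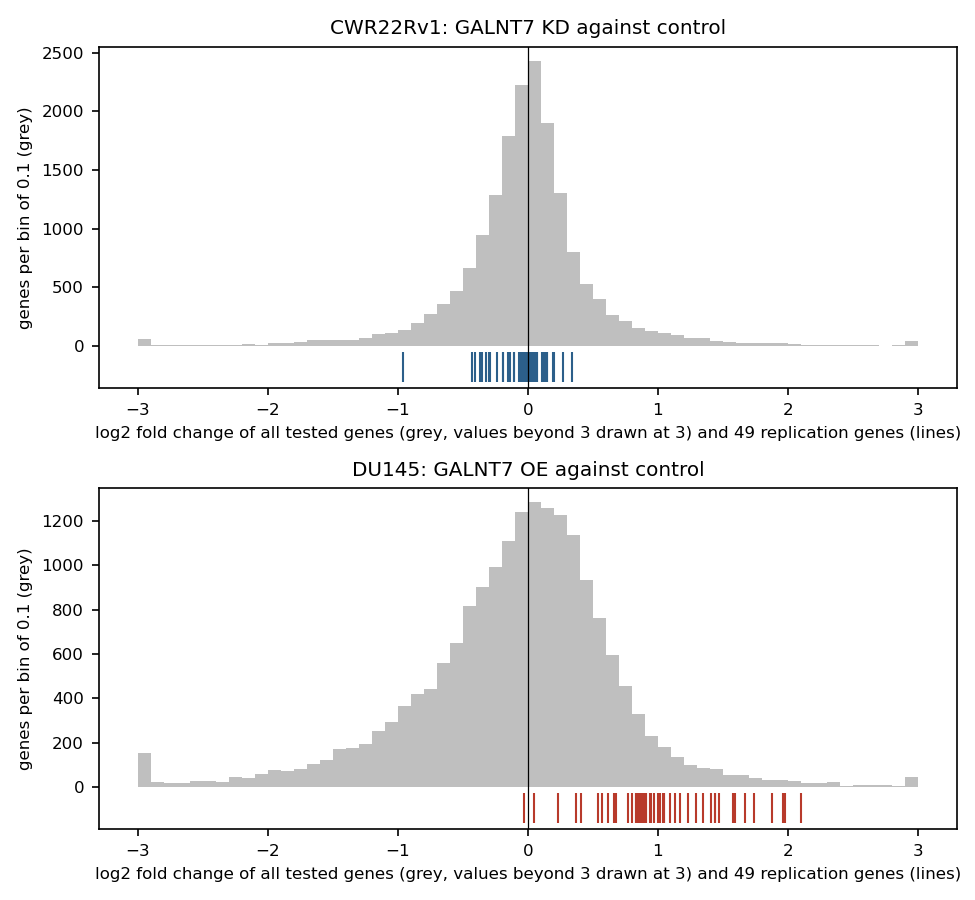
Histograms of the log2 fold change (x axis) of all genes tested in KD (top, 17906 genes) and in OE (bottom, 18705 genes), in bins of 0.1, with a line below the axis for each of the 49 replication genes. The lines in KD cluster around 0 with POLE apart at -0.96, and those in OE lie on the right, with 39 of 49 above the 90th percentile of 0.73.

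A further list of 45 genes that act at or near the fork, none of them a member, was taken from general knowledge. In OE, 39 rose (86.7%, against 22.9% of all genes tested), 2 fell (4.44%, against 20.5%) and 4 did not pass the threshold. The median log2 fold change was 0.73, against -0.01 over all genes tested. Its highest called gene was PCLAF, a PCNA-binding protein, at 149, 157 and 157 in OEControl and 590.3, 630.2 and 747 in GALNT7 OE (log2 fold change 2.07, SE 0.111, adjusted p=2.2e-05). DBF4, the activator of the CDC7 kinase that phosphorylates the MCM ring, was at 489.7, 432 and 446 against 1499, 1731 and 1768 (log2 fold change 1.87, SE 0.0902, adjusted p=1.4e-05). RAD17, which loads the checkpoint clamp, had the largest fitted change but too much spread for a call, at 32.5, 28.6 and 0 against 12, 84.1 and 66.1 (log2 fold change 2.08, SE 1.44, adjusted p=0.29), with OEControl replicate 3 listed at 0, so that this value depends on the pseudocount. The genes that fell were RAD9A, a subunit of that checkpoint clamp, at 407, 409 and 440.3 against 302, 273 and 259 (log2 fold change -0.59, SE 0.0946, adjusted p=0.0025), and POLD4, the small subunit of polymerase delta, at 1111, 977 and 961 against 845, 784 and 737 (log2 fold change -0.36, SE 0.0868, adjusted p=0.014). RNASEH2C, a subunit of the nuclease that removes ribonucleotides from DNA, had 563, 540.0 and 588 against 575, 481 and 484 (log2 fold change -0.14, adjusted p=0.28) and overlapped. Polymerase delta as a whole therefore held a subunit that fell (POLD4), a subunit that did not pass (POLD1) and a pair that rose (POLD2 and POLD3).

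In KD, 2 of the 45 further fork genes fell, none rose and 43 did not pass, with a median of -0.05. The share that fell (4.44%) was close to the 3.79% of all genes tested. At an unadjusted p under 0.05, 2 were higher and 6 lower. With edgeR 0 were higher and 2 lower, and with DESeq2 1 was higher and 5 lower. POLE4, a histone-fold subunit of polymerase epsilon, was at 362, 383 and 373 in shControl and 272, 260.3 and 274 in GALNT7 KD (log2 fold change -0.47, SE 0.0857, adjusted p=0.021). KMT5A, the histone H4 lysine methyltransferase that DTL directs to degradation, was at 3421, 3495 and 3519 against 2529, 2767 and 2417 (log2 fold change -0.44, SE 0.0615, adjusted p=0.0099), and it lies on chromosome 12. Both genes were lower in every KD library. The call of POLE4 was lost in 5 of the 6 fits without 1 replicate, in all but the one without GALNT7 KD replicate 3 (adjusted p=0.042, and 0.057 to 0.077 in the others), and also when replicate number was a block (0.062). That of KMT5A was lost without GALNT7 KD replicate 1 (adjusted p=0.051). Of the other subunits of polymerase epsilon, POLE fell in KD, whereas POLE2 and POLE3 did not pass, with log2 fold changes of -0.03 and -0.08. In OE, POLE2, POLE3 (0.73) and POLE4 (0.28) rose and POLE did not pass.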

How the data were processed

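RNA from CWR22Rv1 cells (shControl and GALNT7 KD) and DU145 cells (OEControl and GALNT7 OE) was sequenced from stranded polyadenylated libraries with 3 biological replicates per group. The authors deposited normalised counts, a signal equal to the reads on each of 59424 Ensembl genes divided by a size factor of the library, in 1 table per cell line. The submitters' processing notes name FastQC, Salmon, DESeq2, R 3.5.3 and hg38, without their roles. Whole reads recovered from the steps of the values (100% whole within 0.01) may therefore be rounded estimates. Depth was 18364512 to 24356910 reads per library, and replicate pairs differed by more than sampling noise (mean chi-square per gene 9.44 to 26.0).

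Each cell line was tested by itself, because the tables were scaled separately, with limma 3.58.1 in R 4.3.3 (lmFit, trended eBayes). Values were put on the scale log2(normalised count + 1), only genes whose mean was 5 or more entered, and adjustment was by Benjamini-Hochberg over all of them with a threshold of 0.05. Fold changes on this scale understate low genes. All 49 members passed the filter in both lines. P-values measure the spread between the 3 replicates of 1 line per group, which may be technical in part. Positions are from GENCODE release 29 (GRCh38), which held 94.4% of the identifiers. The tests were also run on simulated counts. These were given the same added variation between replicates for every gene, so they do not stand for the spread of the data. Named pseudogenes of members, 10 of 6 genes, had a mean normalised count of at most 0.15.

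The members, the further lists and the tests were chosen with earlier results of these data known. All members are named. Values per library are given for the members with the largest and smallest change in OE of each role, for those past the threshold in KD and, from the further list, for those past it in KD and the 3 highest and lowest in OE; MCM10, PCNA and other members were added after their values were seen. Alternatives were pseudocounts of 0.5 and 5, no filter or a mean of 20, rescaling to the 75th percentile, the replicate number as a block, eBayes without a trend, edgeR 4.0.16 and DESeq2 1.42.0 on recovered reads, a threshold of 0.01, each replicate left out, and, in KD, no genes of chromosome 12.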

Additional observations from a re-analysis of the deposited data

How the results depend on the processing

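In OE the number of the 49 replication genes past the threshold was 44 to 47, all higher, under every alternative run, and 45 to 47 with each replicate left out in turn. GINS3 and POLA1 were lost at an adjusted p of 0.01. POLE was gained with a filter at a mean of 20 and with DESeq2 (adjusted p=0.04). The number of all genes past the threshold in OE was 5303 at an adjusted p of 0.01, against 8132. In KD the 4 members became 3 without a filter on low values, which lost POLA1 (adjusted p=0.057), 2 with eBayes without a trend and 2 at an adjusted p of 0.01, with POLE and TIMELESS kept in both of these last fits, 8 with DESeq2, which added GINS3, MCM10, MCM2 and RFC5, and 2 without the genes of chromosome 12, which leaves out POLE and TIMELESS by construction. With each replicate left out they numbered 2 to 6. The 2 further fork genes past the threshold in KD became 6 with DESeq2, 1 at an adjusted p of 0.01 and 0 to 2 with each replicate left out; 0 was reached without GALNT7 KD replicate 1. All genes past the threshold in KD, 1623, became 1238 without a filter, 996 without a trend, 2642 with DESeq2, 392 at an adjusted p of 0.01 and 525 to 1332 with each replicate left out. No member past the threshold, nor GALNT7, changed its direction under any alternative run; the other genes named were not followed in this way, except POLE4 and KMT5A in KD.

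The replicate numbers come from the labels, which do not say what same-numbered libraries share. The deviations of same-numbered libraries from their group means correlated by -0.011, 0.075 and -0.006 in CWR22Rv1 and by 0.043, 0.043 and 0.016 in DU145. These low correlations over all genes tested cannot exclude an effect that same-numbered libraries share on some genes. With the replicate number as a block, 2 members passed in KD (POLE and TIMELESS), with an adjusted p of 0.057 for LIG1 and 0.087 for POLA1, and all genes past the threshold in KD numbered 1002; the same 46 members passed in OE. The cause of these differences was not tested. With 3 libraries per group, small changes in KD can be missed. The intervals given above are not limits of detection, which were not computed.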

Other observations

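The further fork genes also describe the checkpoint and the kinases around the machinery. In OE the subunits of the checkpoint clamp moved apart, with RAD1 (log2 fold change 0.62, limma adjusted p=0.0026) and HUS1 (0.52, adjusted p=0.0067) higher and RAD9A (-0.59, adjusted p=0.0025) lower. The kinase CDC7 (1.15, adjusted p=8.4e-05) rose with its activators DBF4 (1.87, adjusted p=1.4e-05) and DBF4B (1.47, adjusted p=6.6e-05). Of the checkpoint kinases, CHEK1 had 1.14 (adjusted p=5.0e-05) and ATR 0.50 (adjusted p=0.018). In KD neither passed the threshold, with 0.26 for CHEK1 (adjusted p=0.079) and -0.53 for ATR (adjusted p=0.077), and the groups did not overlap in either gene. Histone chaperones on the list included SSRP1 (1.12, adjusted p=3.6e-06) and ASF1B (1.45, adjusted p=3.8e-05) in OE. Smaller rises in OE were found for SUPT16H (0.41, adjusted p=1.6e-04), RBBP4 (0.37, adjusted p=0.0021), NASP (0.36, adjusted p=0.012) and ASF1A (0.36, adjusted p=0.037). UHRF1 (1.46, adjusted p=9.8e-06) and DNMT1 (0.83, adjusted p=1.8e-04), which copy DNA methylation behind the fork, rose in OE, and in KD they had -0.15 (adjusted p=0.23) and -0.14 (adjusted p=0.16).

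TICRR (1.65, adjusted p=2.0e-05), MTBP (0.93, adjusted p=0.003), TOPBP1 (1.04, adjusted p=3.1e-04) and RECQL4 (0.70, adjusted p=0.011), which help CDC45 and GINS to join the helicase, rose in OE. In KD their log2 fold changes were -0.17, -0.06, 0.10 and -0.23, with adjusted p-values of 0.3, 0.76, 0.36 and 0.36. These genes were picked for description after their values were seen.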
